A study of Mus musculus with 20 samples.

Results

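The effect of an enriched environment (EE) on gene expression in the old hippocampus was examined in 10 of the 20 RNA-seq libraries of the study: 5 of mice aged 24 months from an enriched environment (24mEE) and 5 of mice of the same age from a standard cage (24mSC). The libraries were chosen by these labels alone, and only these 10 entered the model. All mice were male C57BL/6 and the tissue of every library is given as hippocampus. The other 10 libraries, from mice aged 5 months in standard cages (5mSC) or under enrichment (5mEE), served only to ask whether the effect differed with age. Per the study's methods the enriched cages were larger and held running wheels, tunnels and climbing platforms and the old mice moved into them late in life. The titles carry separate animal numbers, but nothing else in the labels describes how the animals were housed or dissected, so the p values measure the spread between these libraries only.

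The hippocampus is built from the dentate gyrus, whose granule cells receive the main cortical input, and the fields CA3, CA2 and CA1, which pass it on towards the subiculum and back to the cortex. Its dorsal and ventral ends differ in gene expression and connections. Neuronal activity induces immediate early genes, most of them transcription factors, and then late genes such as Bdnf, whose products act at the synapse. Running and exploration are known to engage these programmes in rodents, and the growth of dendritic spines that accompanies plasticity depends on branched actin filaments.

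Totals lay between 18.2 and 27.2 M counts (M, mega), with 23.3 ± 2.23 M in 24mEE and 20.2 ± 2.33 M in 24mSC (SD, n = 5 each; exact permutation p = 0.0635, two-sided), and log2 expression correlated between any pair of libraries at Pearson r of 0.988 to 0.994 across genes, which are not independent replicates. Levels are given as CPM, counts per M counts of the TMM-scaled library. Markers of hippocampal fields were present in every library, with Prox1 of granule cells at 70.9 to 160.1 CPM, Wfs1 of CA1 at 133 to 215 CPM, Rgs14 of CA2 at 92.2 to 162 CPM and Grik4 of CA3 at 46.8 to 82.5 CPM.

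Of 16050 genes tested by edgeR's quasi-likelihood test, 187 passed an adjusted p of 0.05, which is 1.17% of the genes. The 61 genes higher in 24mEE made up 0.38% and the 126 lower genes 0.785%. The rises were small, with a median of 1.32-fold and a highest of 1.99-fold. The falls were larger, with a median of 1.44-fold, 58 genes that fell over 1.5-fold against 7 that rose as much, and a highest of 5.69-fold. The mineralocorticoid receptor gene Nr3c2, the guidance receptor gene Epha7 and the NMDA receptor gene Grin2a were among those that rose. The hyaluronan receptor gene Cd44, the kinase gene Camk2d and the synaptic organiser genes Cbln1 and Cbln4 were among those that fell. The median log2 fold change of all genes was 0.00.

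The count rested on single libraries. It was 1 gene, Cd44, without 24mEE replicate 1, 3, 4 or 5 or without 24mSC replicate 3. Omitting 24mSC replicate 1, 2, 4 or 5 gave 39, 83, 134 or 70 genes. Leaving out 24mEE replicate 2 raised it to 875, all 187 genes among them. That library stood nearest to the 24mSC mean in 147 of the 187 genes (78.6%) and in 27.6% of all genes tested. In a model of all 20 libraries no gene passed in edgeR, and 1037 had an unadjusted p under 0.05, against 2357 in the model of the 10 libraries. The larger model also takes its spread from the mice aged 5 months, where 5mSC replicate 3 held 26.8% mitochondrial ribosomal RNA. The part of that library in the lost calls was not tested. All 187 genes kept their sign in each of these fits.

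**Figure D1:**
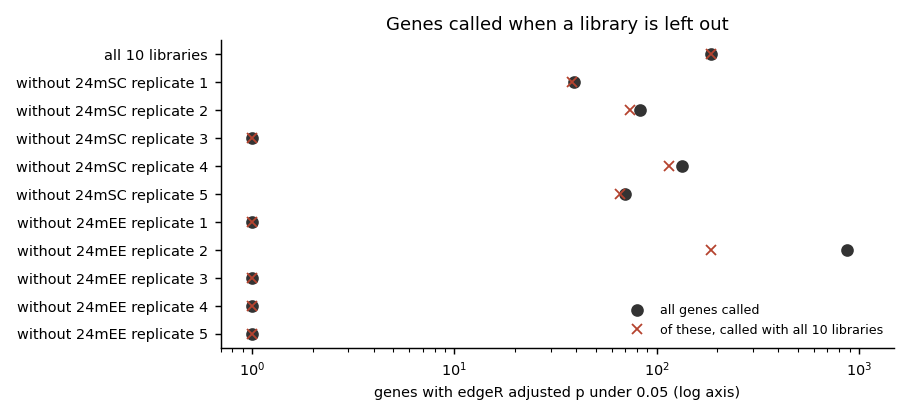
Number of genes with an edgeR adjusted p under 0.05 (log axis) in the fit of all 10 libraries and in fits that leave out each library; dots are all genes called and crosses those among them that were called with all 10. The count runs from 1 to 875, the highest being without 24mEE replicate 2.

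Among the 12 genes that rose with the smallest p, several encode receptors and channels of neurons. Nr3c2 (ENSMUSG00000031618, GRCm38 chromosome 8, 76899442 to 77245012) encodes the mineralocorticoid receptor, the high-affinity receptor for corticosterone in the hippocampus. Its level was 213, 189, 192, 222 and 202 CPM in 24mSC replicates 1 to 5 and 278, 255, 282, 274 and 297 CPM in 24mEE replicates 1 to 5. Every enriched library lay above every standard one, and the log2 fold change was 0.44 ± 0.06 (SE; adjusted p = 0.0143). Epha7 (ENSMUSG00000028289, chromosome 4, 28813131 to 28967499) encodes an Eph receptor that binds ephrins on neighbouring cells. It was at 172, 137, 152, 175 and 149.7 CPM in 24mSC and at 225, 203, 237, 209 and 231 CPM in 24mEE. The groups did not overlap, and the log2 fold change was 0.49 ± 0.07 (adjusted p = 0.0191).

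Grin2a (ENSMUSG00000059003, chromosome 16, 9567898 to 9995560) encodes the GluN2A subunit of the NMDA receptor, the calcium-permeable glutamate receptor needed for many forms of synaptic plasticity. It was at 348, 301, 283, 333 and 315 CPM in 24mSC and at 439, 365, 473, 410.4 and 446 CPM in 24mEE. The lowest enriched library, replicate 2, lay just above the highest standard one, and the log2 fold change was 0.43 ± 0.07 (adjusted p = 0.0251). Of its 50-nucleotide words 11.6% also occur in other genes. Wipf3 (ENSMUSG00000086040, chromosome 6, 54429603 to 54503768) encodes a partner of WASP proteins, which start actin branching. It was at 345, 306, 320.1, 362 and 342 CPM in 24mSC and at 539, 376, 601, 498 and 546 CPM in 24mEE. Replicate 2 was again the lowest enriched library and the groups did not overlap (log2 0.61 ± 0.10, adjusted p = 0.0251).

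The other 8 of these genes rose with groups that did not overlap. Groups did not overlap in 158 of the 187 genes that passed and in 3.51% of all genes, and these 12 were chosen by their p. Gpr63, an orphan G-protein-coupled receptor gene, stood at log2 0.55 ± 0.08 (adjusted p = 0.0191), and the long intergenic RNA gene 4921539H07Rik at 0.99 ± 0.16 (adjusted p = 0.0247). The remaining 6 had an adjusted p of 0.0251. They were Kcns2, a modifying subunit of potassium channels (0.39 ± 0.06), Orai2, a store-operated calcium channel (0.48 ± 0.08), Iqgap2, a scaffold that binds actin (0.71 ± 0.12), Cdc40, a splicing factor (0.35 ± 0.06), Mindy3, a deubiquitinase (0.27 ± 0.04), and 2010300C02Rik (0.41 ± 0.07). Each of the 12 genes passed in 4 or 5 of the 10 fits that left out a library.

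Among the genes that fell, Cd44 (ENSMUSG00000005087, chromosome 2, 102811141 to 102901665) had the smallest p. It encodes a receptor for hyaluronan that astrocytes and immune cells carry. It was at 6.30, 8.37, 9.65, 7.44 and 7.32 CPM in 24mSC and at 2.09, 3.22, 2.62, 2.33 and 3.39 CPM in 24mEE. Every enriched library was below every standard one by a wide gap, and the log2 fold change was −1.52 ± 0.15 (adjusted p = 0.00232). It passed in all 10 fits that left out a library. Camk2d (ENSMUSG00000053819, chromosome 3, 126596302 to 126846326) encodes the delta chain of calcium/calmodulin-dependent kinase II. It was at 92.8, 100.4, 112, 83.5 and 104 CPM in 24mSC and at 43.1, 69.0, 47.2, 44.0 and 55.3 CPM in 24mEE. Replicate 2 was the highest enriched library, and the groups did not overlap (log2 −0.93 ± 0.12, adjusted p = 0.0143).

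Cbln1 (ENSMUSG00000031654, chromosome 8, 87468405 to 87472609) and Cbln4 (ENSMUSG00000067578, chromosome 2, 172036233 to 172043466) encode cerebellins, secreted proteins that bridge presynaptic neurexins to postsynaptic receptors. Cbln1 was at 11.3, 12.5, 17.5, 7.93 and 11.3 CPM in 24mSC and at 2.99, 6.78, 2.44, 2.56 and 2.23 CPM in 24mEE. Replicate 2 stood far above the other 4 enriched libraries but below all standard ones. The log2 fold change was −1.83 ± 0.28 (adjusted p = 0.0207), and −2.24 without that library. Cbln4 was at 18.9, 18.4, 25.01, 10.1 and 20.9 CPM in 24mSC and at 8.14, 6.48, 6.48, 5.56 and 9.34 CPM in 24mEE. The groups came close, since 24mSC replicate 4 was low, but did not overlap (log2 −1.38 ± 0.20, adjusted p = 0.0191).

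The other 8 genes of the same rank also fell with groups that did not overlap, at adjusted p values of 0.0162 to 0.0207. Necab1, a neuronal calcium-binding protein, stood at log2 −0.79 ± 0.11, Prph, the intermediate filament peripherin, at −1.84 ± 0.26, and Kcnj12, an inward-rectifier potassium channel, at −0.77 ± 0.11. Adgra3, an adhesion G-protein-coupled receptor, stood at −0.59 ± 0.09, Camk2n2, an inhibitor of calcium/calmodulin-dependent kinase II, at −0.69 ± 0.10, and Mme, the peptidase neprilysin, which degrades amyloid beta among other peptides, at −0.49 ± 0.07. Fhod3, a formin that assembles unbranched actin, stood at −1.04 ± 0.16 and Sema4g, a semaphorin, at −0.43 ± 0.07.

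**Figure D2:**
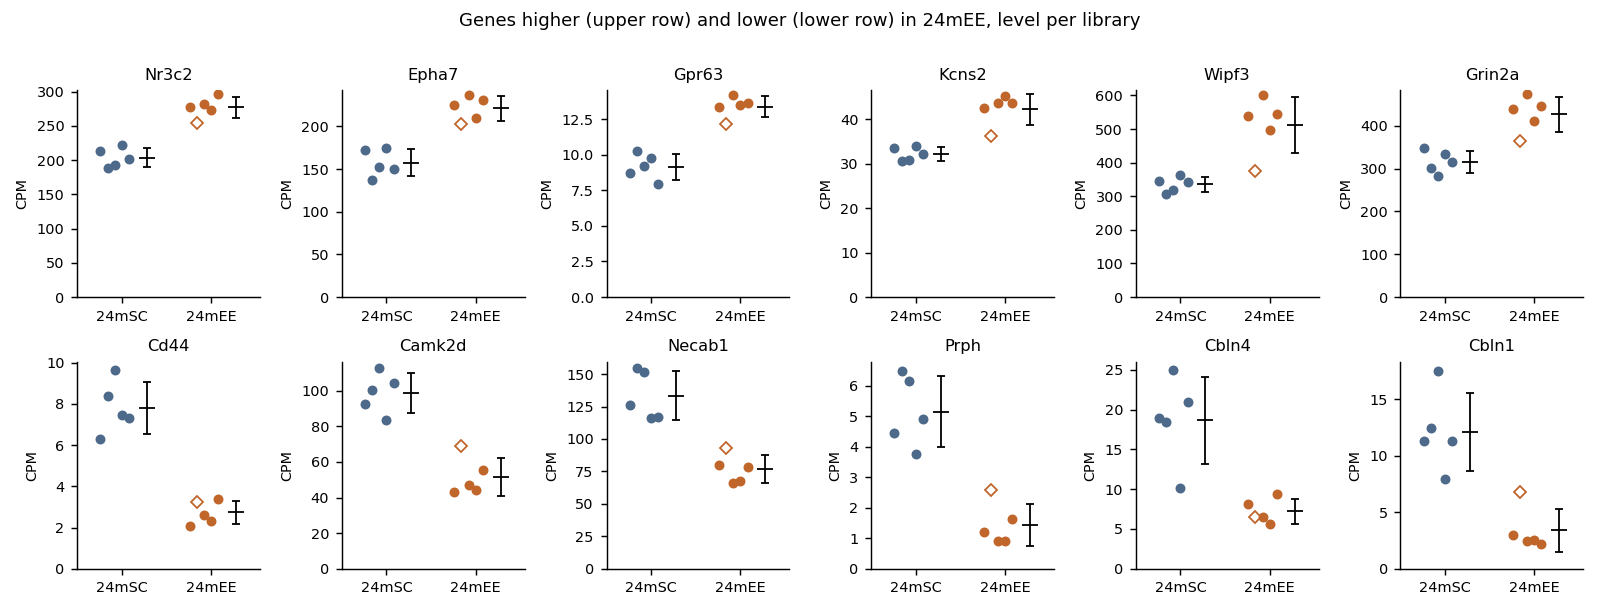
Level in CPM of 6 genes that rose (upper row) and 6 that fell (lower row) in each library of 24mSC and 24mEE; points are libraries, the open diamond is 24mEE replicate 2, and the dash with its bar gives mean and SD, n = 5. The groups do not overlap in any of the 12 genes, which were chosen from those with the smallest p. They do not overlap in 158 of the 187 genes that passed and in 3.51% of all genes. The diamond is the enriched library nearest to the standard ones in most of the 12.

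Few markers of hippocampal regions passed the test, although most members of some lists shared a sign. In bulk tissue, fewer cells of a type and less RNA per cell cannot be told apart. Of 19 markers of dentate granule cells none passed, 18 were positive and the median log2 fold change was 0.32. Their mean log2 CPM was 5.97, 5.19, 5.52, 5.82 and 6.09 in 24mSC and 5.97, 5.94, 6.09, 6.20 and 6.14 in 24mEE. The enriched libraries lay close together at the top of the range of the standard ones, which spread widely. Plekha2, whose exons overlap a gene on the other strand over 26.5%, stood at 0.58 ± 0.15 (adjusted p = 0.0794) and Lct, the lactase gene, at 0.52 ± 0.14 (adjusted p = 0.096). The summed level of the list was 1018 to 1832 CPM in 24mSC and 1627 to 1950 CPM in 24mEE.

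The fields CA2 and CA3 had positive medians of 0.25 and 0.23, with 8 of 10 markers positive in each list and none past the test. Rgs14, which limits plasticity in CA2 neurons, stood at 0.45 ± 0.10 (adjusted p = 0.0517), Adcy1 at 0.25 ± 0.07, and in the CA3 list Bok at 0.35 ± 0.09 and Iyd at 0.44 ± 0.15. The summed level of the CA2 markers did not overlap between the groups, at 1700 to 1836 CPM in 24mSC and 1881 to 2259 CPM in 24mEE, whereas their mean log2 CPM did. Most of this sum was Adcy1, at a mean of 1464 CPM in 24mSC and 1737 CPM in 24mEE. The mean sums of the list were 1777 and 2082 CPM, and the levels of Adcy1 itself overlapped between the groups. The 8 CA1 markers were evenly split, with a median of 0.03. Lefty1 stood at 0.67 ± 0.18 (adjusted p = 0.0954) and Fibcd1 at 0.35 ± 0.11 (adjusted p = 0.147). In the other direction Dcn, which is also on the ventral list, stood at −1.10 ± 0.36 (adjusted p = 0.156). Of 7 mossy cell markers Ociad2 rose (0.33 ± 0.07, adjusted p = 0.0403), beside 0.38% of all genes, and the median was −0.09.

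The lists of the ventral and the dorsal end had medians of opposite sign. Of 11 markers of the ventral end 10 were negative, with a median of −0.52. Beside 0.785% of all genes, 1 fell: Grp, the gastrin-releasing peptide gene (−0.52 ± 0.11, adjusted p = 0.0403). The mean log2 CPM of the ventral list was 4.26, 3.88, 4.22, 3.90 and 4.51 in 24mSC and 3.69, 3.87, 3.65, 3.63 and 3.86 in 24mEE, so that the groups met without overlap. Tpbg was at −0.72 ± 0.23 (adjusted p = 0.151). Of 7 markers of the dorsal end 4 were positive, with a median of 0.22, and Nr3c2 of this list rose, beside 0.38% of all genes. All 6 subiculum markers were negative, with a median of −0.23, none passed, and the mean log2 CPM was 2.64 in 24mEE replicate 1 and 3.21 to 3.82 in the other 9 libraries. Cntn6 was at −0.70 ± 0.22 (adjusted p = 0.142), with 24mEE replicate 2 at 11.09 CPM, within the 24mSC range of 9.47 to 11.13 CPM. Dlk1 was at −0.78 ± 0.24 (adjusted p = 0.128), at low mean levels of 0.82 CPM in 24mSC and 0.47 CPM in 24mEE.

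Of the markers of regions that border the hippocampus, 1 of 12 for the neocortex and 1 of 11 for the striatum fell, and 0 of 11 for the thalamus and habenula passed. Of all genes tested 0.785% fell. Of 12 neocortex markers 10 had negative values around a median of −0.17, and Cux2, a transcription factor of upper cortical layers, fell. Cux2 was at 51.6, 63.5, 62.5, 56.8 and 41.9 CPM in 24mSC and at 23.4, 48.9, 22.9, 25.2 and 27.2 CPM in 24mEE. Replicate 2 lay within the range of the standard libraries and the other 4 well below it (log2 −0.90 ± 0.19, adjusted p = 0.0403). The mean log2 CPM of the 12 markers followed the same order, with 4.82 to 5.11 in 24mSC, 5.07 in 24mEE replicate 2 and 4.49 to 4.60 in the other 24mEE libraries. Their summed level was 625 to 686 CPM in 24mSC and 484 to 680.3 CPM in 24mEE.

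Of 11 striatum markers 8 were negative and 1 passed, as a fall, with a median of −0.08. The mean log2 CPM of the list was 3.16 to 3.47 in 24mSC and 2.78 to 3.14 in 24mEE, where replicate 2 was again the highest enriched library. Its summed level was not lower in 24mEE, at 200.3 to 219 CPM in 24mSC (mean 209) and 205 to 221 CPM in 24mEE (mean 213). Gpr6 was at −1.01 ± 0.28 (adjusted p = 0.0986).

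Of 11 markers of the thalamus and habenula 10 were negative, with a median of −0.34 and none past the test. Their mean log2 CPM was 3.82 to 3.96 in 24mSC and 3.43 to 3.80 in 24mEE, and replicate 2 was again the enriched library nearest to the standard ones. Nr4a2 was at −0.35 ± 0.10 (adjusted p = 0.0923) and Rora at −0.33 ± 0.12 (adjusted p = 0.189). No marker of any region list was at 0 in all 10 libraries. The part of bordering tissue or of the dissected end of the hippocampus in the 187 calls was not tested. When the mean of the neocortex, striatum, thalamus and habenula or ventral markers was added to the model as a covariate, no gene passed in edgeR, with 1191, 384, 364 and 1776 genes at an unadjusted p under 0.05. With the dentate markers as covariate 2 genes passed. The difference between the groups made up 44.7%, 65.1%, 68.3%, 56% and 34.8% of the variance of these 5 means, so that a mean and the environment could be told apart only in part. The 187 genes kept their sign with each covariate, at a median of 76.2%, 66.4%, 57.4%, 82.7% and 90.8% of their log2 fold change. Cd44 stood at −1.52 without a covariate and −1.15 to −1.48 with one, Mme at −0.49 and −0.43 to −0.53, and Nr3c2 at 0.44 and 0.36 to 0.43. Cux2 stood at −0.90 and at −0.26 to −0.94.

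**Figure D3:**
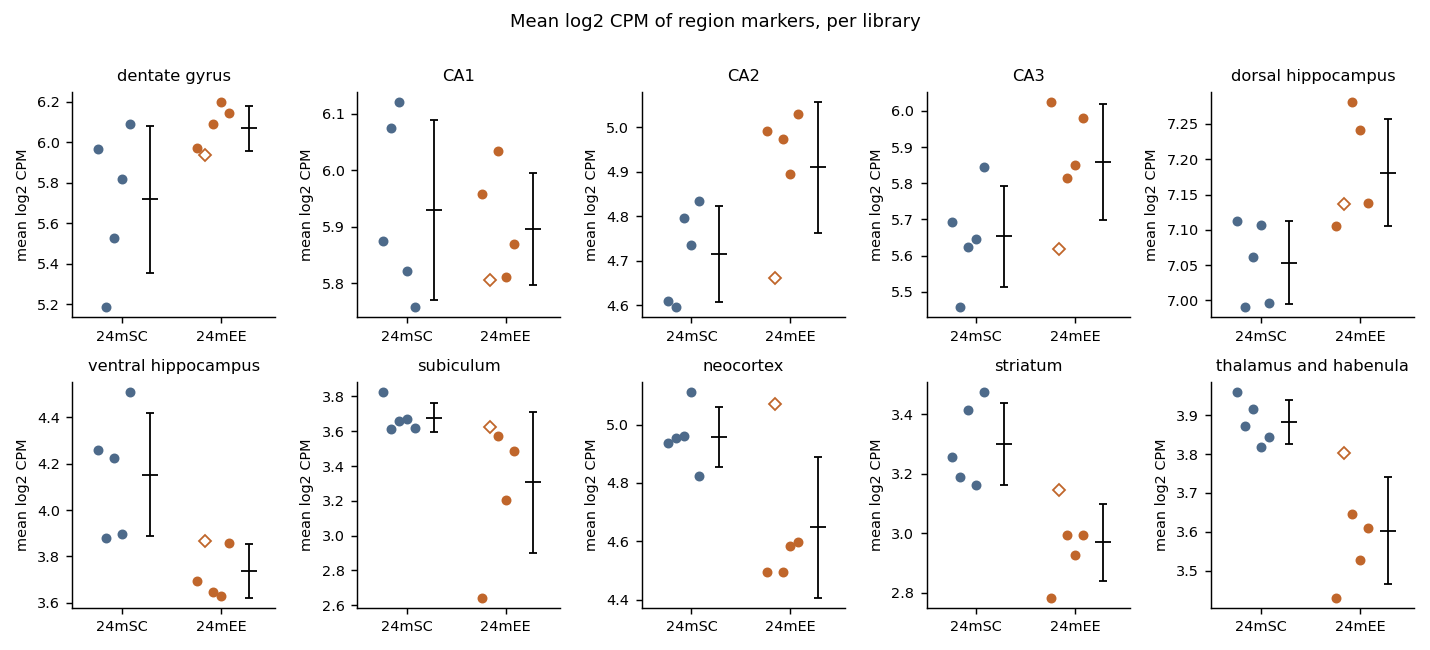
Mean log2 CPM of the markers of 10 regions in each library of 24mSC and 24mEE; points are libraries, the open diamond is 24mEE replicate 2, and the dash with its bar gives mean and SD, n = 5. The groups do not overlap for the ventral hippocampus, striatum and thalamus and habenula markers, and the diamond lies at 5.07 for the neocortex markers, within the range of 24mSC.

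Among genes induced by neuronal activity some late ones rose and no early one passed. Of 24 late activity-regulated genes 3 rose and none fell beside 0.38% of all genes that rose, 19 were positive, and the median log2 fold change was 0.11. Bdnf (ENSMUSG00000048482, chromosome 2, 109674700 to 109727007) encodes the neurotrophin that strengthens synapses through TrkB. It was at 42.5, 40.9, 43.1, 50.6 and 42.7 CPM in 24mSC and at 61.4, 56.7, 54.3, 54.4 and 48.3 CPM in 24mEE. The groups overlapped only through the high 24mSC replicate 4 and the low 24mEE replicate 5 (log2 0.32 ± 0.07, adjusted p = 0.0473). Of its exons 14.4% overlap a gene on the other strand, and the kit does not mark strand.

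Nptx2 (ENSMUSG00000059991, chromosome 5, 144545902 to 144557478) encodes a neuronal pentraxin that clusters AMPA receptors. It was at 21.2, 21.6, 28.0, 33.8 and 27.2 CPM in 24mSC and at 41.4, 36.7, 46.1, 32.3 and 42.6 CPM in 24mEE. Only 24mSC replicate 4 reached the enriched range (log2 0.59 ± 0.13, adjusted p = 0.0403). Nrn1 (ENSMUSG00000039114, chromosome 13, 36725361 to 36735131) encodes neuritin, which promotes the growth of neurites. It was at 198, 188, 196, 205 and 205 CPM in 24mSC and at 261, 227, 231, 259 and 219.8 CPM in 24mEE. The groups did not overlap (log2 0.27 ± 0.06, adjusted p = 0.0403), although 22.3% of its exons overlap Fars2 on the other strand. These calls were lost in 8 or 9 of the 10 fits with a library left out, and the smallest log2 fold changes there were 0.28, 0.52 and 0.24 for Bdnf, Nptx2 and Nrn1.

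None of 25 immediate early genes passed, 15 were positive and the median was 0.11. Egr3, a zinc finger transcription factor gene, was at 38.4, 37.0, 39.3, 41.6 and 37.3 CPM in 24mSC and at 44.3, 49.8, 46.8, 46.3 and 42.2 CPM in 24mEE. Every enriched library lay above every standard one, at a log2 fold change of 0.24 ± 0.06 (adjusted p = 0.0521). Fosb, which also did not overlap, stood at 0.36 ± 0.09 (adjusted p = 0.0732). In the other direction 10 members were negative, the lowest being Nr4a2 at −0.35 ± 0.10 (adjusted p = 0.0923). The mean log2 CPM of the whole list overlapped, with 3.98 to 4.38 in 24mSC and 3.94 to 4.57 in 24mEE.

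**Figure D4:**
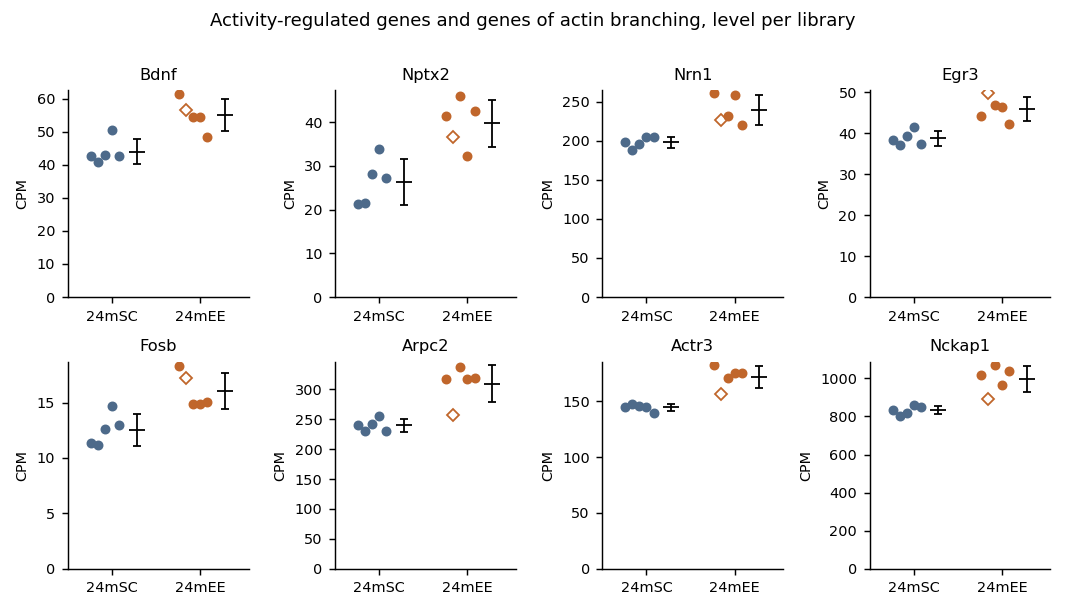
Level in CPM of 5 activity-regulated genes and 3 genes of actin branching in each library of 24mSC and 24mEE; points are libraries, the open diamond is 24mEE replicate 2, and the dash with its bar gives mean and SD, n = 5. Bdnf and Nptx2 are the only panels in which a 24mSC library reaches the 24mEE range, and that library is replicate 4.

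The promoter of Bdnf was inspected because, of the 3 late genes that passed, it alone matched a promoter sequence: RefSeq windows of GRCm38.p6, from 250 bases before to 50 after a gene's start, matched 11765 of the genes tested, 16 of them late activity-regulated genes, and Bdnf has 7 windows. The CRE core TGACG, bound by the activity-regulated factor CREB, was searched on both strands. It was found in 1 Bdnf window, chr2:109692186-109692485 on the plus strand, which is printed 5′ to 3′ with the match in capitals, here CGTCA, the reverse complement of the core.
Bdnf: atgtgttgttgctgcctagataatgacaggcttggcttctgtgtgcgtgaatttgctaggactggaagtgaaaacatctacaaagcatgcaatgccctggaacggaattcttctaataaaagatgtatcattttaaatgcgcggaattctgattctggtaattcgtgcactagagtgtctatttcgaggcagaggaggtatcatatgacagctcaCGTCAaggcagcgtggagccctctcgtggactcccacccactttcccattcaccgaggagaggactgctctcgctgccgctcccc
Of the genes tested 33.97% have a window with this core, against 9 of 44 genes that rose (20.5%), 30 of 93 that fell (32.3%) and 12 of 16 late activity-regulated genes (75%). A gene was counted if any of its windows matched, so genes with many windows, such as Bdnf, match more easily. Of all 32851 windows 20.8% held the core. The full site TGACGTCA, which contains the core, occurred in 3.48% of the genes tested, in none of the 44, in 2 of the 93 (2.15%) and in 3 of the 16 (18.75%). A match is a run of letters and says nothing about binding in these mice.

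Several genes of branched actin rose in 24mEE. A list of 22 genes of the Arp2/3 complex, which nucleates branches, the WAVE complex, which activates it, and WASP partners was drawn up after values had been seen and is a description only. Of the 22, 5 rose beside 0.38% of all genes, none fell, 19 were positive, the median was 0.14, and 7 had groups that did not overlap, as did 3.51% of all genes. In the 10 fits that left out a library, Wipf3 passed in 5, Arpc2 in 2, and Actr3, Actr2 and Nckap1 in 1 each. Arpc2, a subunit of Arp2/3, was at 240.0, 231, 242, 256 and 229.9 CPM in 24mSC and at 318, 258, 337, 318 and 319 CPM in 24mEE. Replicate 2 was far below the other enriched libraries but above the standard ones (log2 0.37 ± 0.07, adjusted p = 0.0261). Actr3, the Arp3 subunit, was at 139 to 148 CPM in 24mSC and 157 to 183 CPM in 24mEE (0.25 ± 0.05, adjusted p = 0.0285), and 26.3% of its words occur in other genes too. Nckap1 of the WAVE complex rose by 0.26 ± 0.06 (adjusted p = 0.0438), and Actr2, the Arp2 subunit, chosen after its values were seen, by 0.25 ± 0.06 (adjusted p = 0.0495).

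Receptors and channels at the synapse moved in both directions. Of 32 glutamate receptor genes Grin2a rose and 3 fell, beside 0.38% and 0.785% of all genes, and the median was −0.02. Those that fell were Gsg1l, an auxiliary subunit that restrains AMPA receptors (−0.49 ± 0.08, adjusted p = 0.0251), Gria4, an AMPA receptor subunit (−0.37 ± 0.07, adjusted p = 0.028), and Grin3a, an NMDA receptor subunit that lowers calcium entry (−0.47 ± 0.09, adjusted p = 0.0354). Of 15 GABA receptor subunits Gabra4 rose (0.22 ± 0.05, adjusted p = 0.0403), beside 0.38% of all genes, and Gabra3 stood at −0.39 ± 0.09 (adjusted p = 0.0645).

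Of 44 listed potassium channel genes Kcns2 rose, and Kcnc4 (−0.47 ± 0.09, adjusted p = 0.0316) and Kcnip3 (−0.34 ± 0.07, adjusted p = 0.0434) fell, with a median of −0.01. The potassium channel gene Kcnj12, which fell to a log2 fold change of −0.77 ± 0.11, is not on this list. For this list and the next ones, 0.38% of all genes rose and 0.785% fell. Of 26 listed sodium and calcium channel genes Scn3b, an auxiliary sodium channel subunit, rose (0.42 ± 0.07, adjusted p = 0.0251), and Cacnb2 stood at 0.30 ± 0.07 (adjusted p = 0.0601). The calcium channel gene Orai2, which also rose, is not among these 26. Of 19 Eph receptors and ephrins, Epha7 and Epha6 (0.55 ± 0.11, adjusted p = 0.0362) rose, and the median was 0.04. Of 31 semaphorins and plexins, a list also drawn up after values were seen, none rose and 3 fell, beside 0.785% of all genes: Sema4g, Plxnd1 (−0.73 ± 0.12, adjusted p = 0.0251) and Plxna3 (−0.40 ± 0.08, adjusted p = 0.0403).

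On the presynaptic side, Doc2b, a calcium sensor of vesicle release, rose (0.42 ± 0.09, adjusted p = 0.0382) and Stx1a, a SNARE protein of vesicle fusion, fell (−0.42 ± 0.07, adjusted p = 0.0251) among 32 genes with a median of −0.04. Among all genes 0.38% rose and 0.785% fell. Of 32 genes of postsynaptic scaffolds and adhesion, Cbln1 and Cbln4 fell and the median was 0.04. Both calls among the 15 genes of calcium/calmodulin-dependent kinases were falls, in Camk2d and the inhibitor Camk2n2, around a median of 0.01. Adcy8, a calcium-stimulated adenylyl cyclase (−0.63 ± 0.12, adjusted p = 0.0285), and Prkar2b, a regulatory subunit of protein kinase A (−0.37 ± 0.08, adjusted p = 0.0403), fell among 24 genes of second messengers.

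Of 31 neuropeptides and their receptors none rose and 3 fell, beside 0.785% of all genes, with 22 negative and a median of −0.14. Besides Grp these were the neurotensin receptor gene Ntsr1 and the somatostatin receptor gene Sstr1. Ntsr1 was at 7.80, 9.21, 8.54, 8.64 and 8.29 CPM in 24mSC and at 4.14, 6.48, 3.68, 2.56 and 4.88 CPM in 24mEE. All enriched libraries were lower (log2 −0.96 ± 0.18, adjusted p = 0.0285). Sstr1 fell by 0.78 ± 0.15 on the log2 scale (adjusted p = 0.0285). Of 29 monoamine and acetylcholine receptor genes the serotonin receptor gene Htr7 fell (−0.46 ± 0.08, adjusted p = 0.0251).

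**Figure D5:**
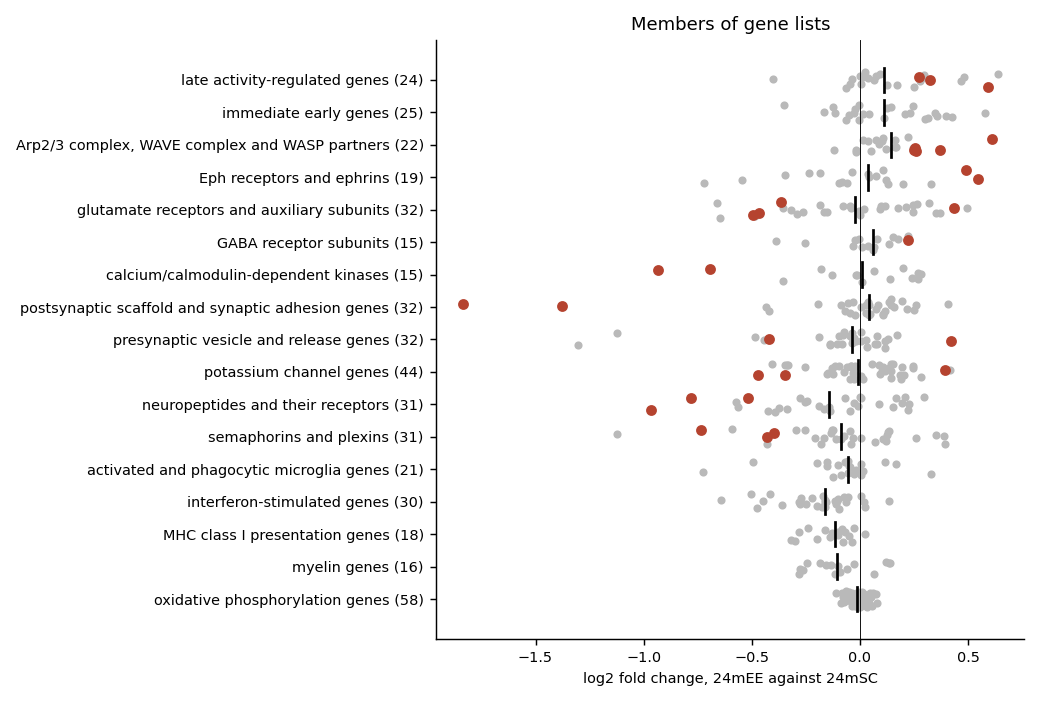
Log2 fold change of 24mEE against 24mSC for the tested members of 17 gene lists, with the number of members in brackets; red points passed the edgeR test, grey points did not, and black bars are medians. Red points of the late activity-regulated genes and the Arp2/3, WAVE and WASP genes all lie above 0, and those of the neuropeptides, kinases, synaptic adhesion genes, semaphorins and plexins all lie below it. The list of Arp2/3, WAVE and WASP genes and that of semaphorins and plexins were drawn up after values were seen.

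Other lists held 1 call each, or 2 in the case of the collagens, beside 0.38% of all genes that rose and 0.785% that fell. Of 22 corticosteroid receptors and glucocorticoid targets Nr3c2 rose, Fkbp5, a glucocorticoid-induced co-chaperone gene, stood at 0.49 ± 0.12 (adjusted p = 0.0694), and the median was 0.14. Of 14 neurotrophins and receptors Bdnf rose, and Ntrk3 stood at 0.30 ± 0.09 (adjusted p = 0.126). Of 15 genes of adult neurogenesis Tubb3, a neuronal tubulin, fell (−0.32 ± 0.06, adjusted p = 0.0316), and Neurod2 stood at 0.25 ± 0.06 (adjusted p = 0.0791). Of 21 hyaluronan and perineuronal matrix genes Cd44 fell, and Acan, the core protein of perineuronal nets, stood at 0.52 ± 0.12 (adjusted p = 0.0597). Of 32 collagens and collagen enzymes Bmp1 rose (0.36 ± 0.08, adjusted p = 0.048) and Col23a1 fell (−1.18 ± 0.26, adjusted p = 0.0475). Of 12 choroid plexus and ependyma markers Kl, the gene of klotho, which is also expressed in hippocampal neurons, rose (0.46 ± 0.09, adjusted p = 0.028), and 10 were negative.

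Lists of glia, immunity and housekeeping held no calls, apart from Cd44 in that of astrocyte reactivity. Of 18 genes of MHC class I presentation 17 were negative (median −0.11), and Tapbp stood at −0.20 ± 0.07 (adjusted p = 0.162). Of 30 interferon-stimulated genes 26 were negative (median −0.16), of 14 homeostatic microglia markers 12 (median −0.08, with Cx3cr1 at −0.10 ± 0.05), and of 21 activated microglia genes 15 (median −0.05). Of 16 myelin genes 12 were negative (median −0.11), and of 21 genes of cholesterol synthesis and transport 20 (median −0.13). The 58 genes of oxidative phosphorylation had a median of −0.01 and the 57 cytosolic ribosomal proteins one of −0.03. Of 25 insulin and IGF genes none passed, with Igfbp5 at −0.37 ± 0.09 (adjusted p = 0.0694). In all, 33 of 58 lists had no passing member.

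Of the 9 tested hub genes that the study named, in part from these mice, so that they are not independent evidence, Cttnbp2, a cortactin-binding protein gene of dendritic spines, rose (0.22 ± 0.05, adjusted p = 0.0475). Among all genes 0.38% rose. Inhba (0.64 ± 0.16), Rras2 (0.28 ± 0.07) and Diexf (0.20 ± 0.06) were positive. Il4ra (−0.46 ± 0.15), Socs3 (−0.61 ± 0.21), Bcl3 (−1.09 ± 0.40), Grb10 (−0.30 ± 0.09) and Rps6ka1 (−0.17 ± 0.07) were negative, with adjusted p values of 0.072 to 0.313 for these 8.

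Whether enrichment acted otherwise at 24 than at 5 months was tested as an interaction over all 20 libraries. No gene of 16692 passed in edgeR, 1336 had an unadjusted p under 0.05, and DESeq2 called 6, Cd44 and Adgra3 among them. Without 5mSC replicates 1 and 3, a choice made with earlier results known (replicate 3 held 26.8% mitochondrial ribosomal RNA), Egr3 passed (adjusted p = 0.0194). No gene passed between 5mEE and 5mSC in edgeR, where 2759 had an unadjusted p under 0.05. On the scale of the 20 libraries, Cd44 was at 3.65 ± 1.56 CPM in 5mSC and 4.30 ± 1.69 CPM in 5mEE, against 7.74 ± 1.25 CPM in 24mSC and 2.70 ± 0.551 CPM in 24mEE (SD, n = 5 each). The difference of its log2 fold changes was −1.82 ± 0.39 (adjusted p = 0.522). Nptx2 had a log2 fold change of −0.17 ± 0.18 at 5 months and a difference of 0.76 ± 0.26 (adjusted p = 0.621). Grin2a had 0.36 ± 0.12 at 5 months and a difference of 0.07 ± 0.16 (adjusted p = 0.913). In the edgeR fit without 5mSC replicates 1 and 3 the difference was 0.26 for Grin2a (adjusted p = 0.51) and −2.05 for Cd44 (adjusted p = 0.206). The difference for Grin2a changed in size with these libraries and passed in neither fit. Its rise at 5 months did not pass in the fit of 20 libraries (adjusted p = 0.223). Of the 187 genes 102 (54.5%) had the same sign at 5 months, as did 55.0% of all genes tested.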

How the data were processed

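RNA-seq of the 10 libraries of 24mEE and 24mSC was analysed. The authors deposited raw read counts for Ensembl genes. The labels name featureCounts 1.4.6-p4, STAR 2.4.1d, bcl2fastq 1.8.2 and the GRCm38 build. The library kit (TruSeq RNA v2) does not mark strand. According to the paper, these tables were generated for the archive and its own results rest on another count step. The deposited RPKM values were not used, since counts carry the depth that the test needs. The sequencing run, a covariate in the paper, is not given in the labels.

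Of 47729 identifiers 99.1% matched a symbol of the GRCm38 annotation. Counts were tested in R 4.3.3 with edgeR 4.0.16 (quasi-likelihood, TMM scaling, filterByExpr at its minimum count of 10 and minimum total of 15), with Benjamini-Hochberg adjustment over the 16050 genes left and a threshold of 0.05. The SE is that implied by the F statistic. The interaction was fitted on 20 libraries. List values are counts, medians and mean log2(CPM + 0.5) over tested members, with no test. The 58 lists and the members were chosen with earlier results of these data known, and 2 more lists were drawn up after values were seen. Named genes were the 12 per direction with the smallest p among genes that passed and had a symbol and an average log2 CPM of 1 or more, up to 4 passing members of each list or, where fewer than 2 passed, the 2 with the smallest p, and the study's hub genes. Alternatives were DESeq2 1.42.0, limma-voom 3.58.1, other scalings and filters, marker covariates, a surrogate variable (sva 3.50.0) and each library left out.

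On simulated data of this comparison (15903 genes, 50 changed per fold size) 94% of genes raised 1.5-fold and 100% of those changed 2-fold in either direction were recovered, with 7 false calls. The simulated spread followed a smooth trend over expression, only genes with an average log2 CPM above 1 were changed, and no library stood apart. These rates therefore do not carry over to the real libraries, where Lefty1 (log2 0.67) and Dcn (−1.10) did not pass. At these depths 3 counts correspond to 0.11 to 0.165 CPM, and such floors cover counting error only. Replicate numbers follow the order of deposition. Some genes are not reported here.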

Additional observations from a re-analysis of the deposited data

Results flagged for a closer look

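A library was noted where its gap to the nearest of the other 4 of its group, over the group's range, was above 0.71, the 95% critical value of Dixon's ratio. This occurred 20 times in 300 groups of gene levels and list means (6.67%), and chance alone gives about 1 in 20 groups. The library was 24mEE replicate 2 in 8 cases, 24mSC replicate 1 in 5 and 24mSC replicate 4 in 3.

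24mEE replicate 2 was far from the other enriched libraries, on the side of 24mSC, in each of its cases. In Kcns2 it stood at 36.26 CPM against 42.64 to 45.24, in Orai2 at 77.91 against 98.63 to 103.7 and in Arpc2 at 257.9 against 317.6 to 337.4. In Cbln1 it stood at 6.783 CPM against 2.231 to 2.987, in Cux2 at 48.87 against 22.93 to 27.24 and in Adcy8 at 32.52 against 19.57 to 22.1. Its mean log2 CPM was 5.072 for the neocortex markers against 4.493 to 4.599, and 7.287 for the Arp2/3, WAVE and WASP genes against 7.412 to 7.459.

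24mSC replicate 1 was high in the mean log2 CPM of blood cell genes (4.259 against 2.152 to 2.33), endothelial genes (5.163 against 4.258 to 4.49), pericyte and smooth muscle genes (4.047 against 3.283 to 3.352) and subiculum markers (3.823 against 3.614 to 3.672), and low in that of cholesterol genes (5.73 against 5.806 to 5.831). 24mSC replicate 4 was high in Bdnf (50.62 CPM against 40.91 to 43.08), Bcl3 (2.77 against 0.6277 to 1.116) and the mean log2 CPM of the late activity-regulated genes (5.522 against 5.31 to 5.37). 24mSC replicate 2 was low in 2010300C02Rik (295.6 CPM against 354.8 to 377.3) and Iyd (2.772 against 4.268 to 4.562), 24mSC replicate 5 was low in Actr3 (139.2 CPM against 145.2 to 147.6), and 24mSC replicate 3 was high in Plxnd1 (78.15 CPM against 62.93 to 67.22).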

How the results depend on the processing

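The 187 genes kept their sign in every fit that tested them. Of the genes named in the text that did not pass, these changed sign, all with a marker covariate: Fibcd1 (to −0.01), Cntn6 (to 0.19), Tpbg (to 0.19), Gpr6 (to 0.04), Dcn (to 0.31) and Socs3 (to 0.15). Of 60 list medians 43 changed sign in some fit, 40 of them with a marker covariate, 20 with a library left out and none with another scaling. Of the 25 medians of at least 0.1 in size 14 did so, all with a covariate, among them those of the ventral (−0.52 to 0.05), subiculum (−0.23 to 0.27), CA3 (0.23 to −0.06), neocortex (−0.17 to 0.04), myelin (−0.11 to 0.19) and interferon lists (−0.16 to 0.22). The changed values of Gpr6, Dcn and the ventral median came with the mean of their own list, striatum or ventral, as covariate. Such a covariate takes up much of its members' difference by construction. The ventral median and Dcn also changed sign with the striatum covariate. The number of genes called was 185 to 224 with other scalings, limma-voom or a filter at a CPM of 1. It was 645 by DESeq2, 442 by limma-voom with sample quality weights, 460 without the filter, 46 with 1 surrogate variable, 2 with the dentate gyrus covariate, and 0 with the neocortex covariate or in the fit of all 20 libraries. The striatum, thalamus and habenula and ventral hippocampus covariates, chosen after the data were seen, each gave 0. With a library left out it ran from 1 to 875. Of the calls, 32.6% were rises, against 40.6% by DESeq2, 41.1% without the filter and 22.9% without 24mSC replicate 2. Lists with a passing member numbered 25, and 0 in the fit of all 20 libraries and with the neocortex, striatum, thalamus and habenula or ventral covariate, 2 with the dentate covariate, 11 with the surrogate variable, and 2 to 35 with a library left out. Interaction calls were 0, but 6 by DESeq2, 1 without 5mSC replicates 1 and 3, and 0 to 1 with a library left out (1700016P03Rik without 5mEE replicate 2, Adgra3 without 5mEE replicate 5). The difference of mean totals was 3.09 M counts, 2.104 to 4.07 M with a library left out, and passed without 24mSC replicate 3 (exact permutation p = 0.00794). The causes were not tested. No paired analysis was possible because the labels give no replicate numbers that the groups share. Levels near or below 1 CPM rest on few counts per library.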
